A study of Mus musculus with 3 samples.

Results

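The cells described here are basal cells of the mouse mammary epithelium in which genes of a set led by Vcan, Igfbp2 and Ccnd2 were detected. They numbered 886 of 10939 basal cells and of 26320 cells kept from 3 single-cell RNA-seq libraries, and are called Vcan/Igfbp2 basal cells below. A cell was taken as basal when Krt5, Krt14, Krt17 and Acta2 together had at least 5 UMIs (unique molecular identifiers, each standing for 1 captured transcript molecule) and at least 3 times the sum of each of the luminal gene groups Csn3, Elf5, Kit and Aldh1a3, and Prlr, Areg, Pgr, Esr1 and Cited1. Among these it was a member when at least 2 of the 6 genes Serpinb11, Vcan, Igfbp2, Ccnd2, Capn6 and Moxd1 were detected and more of them than of any of the 3 other sets of 6 genes. The other sets gave Lgr5/Gfra2 basal cells (Gfra2, Scube3, Dkk3, Grik3, Lgr5 and Cxcl14), Eln/Fmod basal cells (Cpm, Mmp2, Eln, Fmod, Il17b and Dlk2) and Kctd4/Osr1 basal cells (Kctd4, Ackr4, Ntn4, Osr1, Mir143hg and Fbxl22). The 24 set genes and the gate genes chose the members, so their levels below are descriptions and were not tested.

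The basal layer of the mammary gland lies between the luminal cells and the basement membrane. Its cells are myoepithelial, which means that they are epithelial cells carrying the contractile proteins of smooth muscle, and they squeeze milk along the ducts when oxytocin binds its receptor. They also make much of the basement membrane, and transplantation studies place cells able to rebuild a gland within this layer.

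All 3 libraries belong to 1 untreated group. Per the labels, each was made from number 4 mammary glands pooled from 4 female FVB/NJ mice aged 10 weeks, digested with collagenase and trypsin, stained for CD49f, EpCAM, CD31, CD45, Ter119 and a dead-cell dye, and sorted for live epithelial cells. The animals carried no transgene named in the labels, and the sort can set the shares of cell types. The labels leave unstated if 1 pool of mice gave all 3 libraries, so library-to-library spread may be technical. The p-values below take that spread partly from all genes together and not from each gene alone.

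Library 1 gave 48 members beside 1633 other basal cells, library 2 gave 633 beside 4194, and library 3 gave 205 beside 4226. The summed UMIs of the members were 162387, 2098694 and 562602, so that 1 UMI in library 1 was worth 6.16 CPM (counts-per-million, relative to the summed UMIs of a group). Members were sequenced more deeply per cell than other basal cells, with median UMIs of 3074, 3115 and 2663 in libraries 1, 2 and 3, against 2025, 2118.5 and 1741 in other basal cells. Mitochondrial genes took a median of 2.95%, 1.90% and 2.1% of UMIs in members and 2.87%, 1.76% and 1.96% in other basal cells. Scrublet, which scores droplets that may hold a pair of cells, marked 8.33%, 5.06% and 12.2% of members and 5.27%, 9.99% and 10.4% of other basal cells. The 3 libraries hold 77 to 146 cell barcodes in common per pair, and 1 of these belonged to members in both libraries of a pair.

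Members carried the basal program that the gate asks for, and also basal markers that the gate does not use. Acta2 (smooth-muscle actin) was at 6251, 6457 and 7376 CPM in members of libraries 1, 2 and 3, and at 4931, 6970.5 and 7107 CPM in other basal cells. Krt14 was at 2038, 2126 and 1509 CPM in members and at 2732, 2285 and 2760.3 CPM in other basal cells, so the 3 values of members lay below all 3 of the other cells. Trp63, the p63 transcription factor that maintains basal identity, was at 228, 201 and 176 CPM in members and at 169, 200 and 178 CPM in other basal cells. These Trp63 ranges overlap, and in luminal progenitors and hormone-responsive luminal cells the same gene stayed between 2.41 and 10.8 CPM. Myh11, the smooth-muscle myosin heavy chain, was at 1053, 1045 and 1107 CPM in members and at 1034, 1449 and 1449 CPM in other basal cells, and at most 49.8 CPM in either luminal class. The label of basal cells therefore holds by its markers, and "Vcan/Igfbp2" names a set of genes and not a cell type.

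Markers of other cell types were summed by list. The 15 luminal progenitor markers summed to 3664, 3256 and 4186 CPM in members and to 3677, 4208 and 4173 CPM in other basal cells. The 10 fibroblast markers summed to 413, 356 and 343 CPM in members and to 176, 442 and 461 CPM in other basal cells, and 11 members had 3 or more of them detected. Of the 8 endothelial markers, Cdh5, Kdr, Flt1 and Emcn had 0 UMIs in members of every library, and the list summed to 18.5, 9.53 and 8.89 CPM in members against 25.3, 13.2 and 20.2 CPM in other basal cells. Of the 8 pericyte markers, Kcnj8 and Higd1b were at 0, with sums of 12.3, 21.0 and 28.4 CPM in members and 38.0, 45.4 and 45.4 CPM in other basal cells. The 9 immune markers summed to 55.4, 80.5 and 44.4 CPM in members and to 23.1, 40.2 and 25.8 CPM in other basal cells, with Cd52, Tyrobp, Fcer1g, Cd3e and C1qa at 0 in members. The members' higher immune sum was carried by Cd74, which is described with the antigen presentation genes. Of the 7 adipocyte markers, Adipoq, Plin1, Cidec and Retn were at 0 in members, and the list summed to 12.3, 4.76 and 7.11 CPM in members against 73.2, 31.2 and 66.5 CPM in other basal cells. The 10 hormone-responsive luminal markers summed to 419, 327 and 188 CPM in members and to 469, 342 and 308 CPM in other basal cells. The 9 skin and nipple keratinocyte markers summed to 616, 475 and 309 CPM in members and to 411, 412 and 360.4 CPM in other basal cells. Schwann cell markers were at 86.2 to 167 CPM in members and at 102 to 159 CPM in other basal cells, and erythroid markers at 0 to 18.5 CPM in members and at 4.23 to 116 CPM in other basal cells. The hormone-responsive, endothelial, pericyte and adipocyte sums were lower in members in each library and the immune sum was higher, and the part of such cells in the results below was not tested.

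The 6 genes that define the set have different known roles. Vcan, at chromosome 13, 89655312 to 89742509 on the minus strand (all positions are on GRCm38, the mm10 build, in GENCODE M21), encodes versican, a large chondroitin sulfate proteoglycan that binds hyaluronan in provisional matrix. Igfbp2 (chromosome 1, 72824503 to 72852474, plus strand) encodes a secreted protein that binds insulin-like growth factors. Ccnd2 (chromosome 6, 127125162 to 127152193, minus strand) encodes cyclin D2, a partner of the kinases Cdk4 and Cdk6 in G1. Capn6 (chromosome X, 143802231 to 143827414, minus strand) encodes a member of the calpain family, in which most but not all members are calcium-dependent proteases. Moxd1 (chromosome 10, 24223517 to 24302790, plus strand) encodes a monooxygenase related to dopamine beta-hydroxylase. Serpinb11 (chromosome 1, 107361198 to 107380475, plus strand) encodes a clade B serpin, a family of mostly intracellular protease inhibitors.

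The promoters of 3 of these genes are shown because their transcripts were detected in the same members most often. Each is the 250 bases before a RefSeq start site (GRCm38.p6), printed 5′ to 3′ on the gene's strand. None of the windows printed overlaps an annotated exon in GENCODE M21. Capitals mark matches, on either strand, to CAGGTG, which is an E-box core, or to GGGCGG, which is a GC box core. The third motif searched, CTTTGA, a core of sites for the TCF/LEF family, had no match in these windows. No match overlaps another.
Vcan, chr13:89742513-89742762, minus strand: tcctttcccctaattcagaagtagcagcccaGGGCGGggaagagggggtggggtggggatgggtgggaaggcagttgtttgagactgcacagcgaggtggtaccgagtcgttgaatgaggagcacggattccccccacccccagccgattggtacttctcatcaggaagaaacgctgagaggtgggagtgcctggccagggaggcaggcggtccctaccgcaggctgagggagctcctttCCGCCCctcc
Igfbp2, chr1:72824230-72824479, plus strand: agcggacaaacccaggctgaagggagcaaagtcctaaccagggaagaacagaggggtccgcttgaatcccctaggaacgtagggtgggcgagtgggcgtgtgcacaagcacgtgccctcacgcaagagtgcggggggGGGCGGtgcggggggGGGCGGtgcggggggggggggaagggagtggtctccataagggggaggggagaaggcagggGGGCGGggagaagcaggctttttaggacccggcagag
Moxd1, chr10:24223267-24223516, plus strand: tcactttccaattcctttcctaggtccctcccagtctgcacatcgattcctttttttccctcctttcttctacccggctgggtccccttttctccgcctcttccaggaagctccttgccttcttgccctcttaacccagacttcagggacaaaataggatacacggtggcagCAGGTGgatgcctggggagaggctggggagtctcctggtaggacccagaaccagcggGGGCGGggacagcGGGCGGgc
The GC box occurs 2 times in the Vcan window, 3 times in the Igfbp2 window and 2 times in the Moxd1 window, where CAGGTG occurs 1 time. Igfbp2 has a further RefSeq start whose window, chr1:72825137-72825386, is not printed. That window overlaps an Igfbp2 exon and has 0 matches to each motif. Of 32851 mouse promoter windows of the same length in the table, 32.7% hold GGGCGG, 17.2% hold CAGGTG and 13.8% hold CTTTGA. The matches describe these letters and are not evidence of binding.

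By construction the set genes were higher in members. Serpinb11 had the largest ratio between the groups, with 123, 204 and 116 CPM in members of libraries 1, 2 and 3 against 1.97, 19.3 and 5.07 CPM in other basal cells. Vcan was at 369, 539 and 423 CPM in members and at 68.7, 127 and 91.0 CPM in other basal cells. Igfbp2 was at 708, 651 and 517 CPM in members and at 123, 202 and 93.6 CPM in other basal cells. For each of these genes the lowest library of the members lay above the highest library of the other cells.

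Ccnd2 and Moxd1 did not overlap between the groups either, and Capn6 did. Ccnd2 was at 339, 338 and 240 CPM in members and at 71.2, 83.7 and 48.9 CPM in other basal cells. Moxd1 was at 333, 309 and 366 CPM in members and at 63.9, 118 and 93.9 CPM in other basal cells. Capn6 was at 30.8, 150 and 160 CPM in members and at 4.50, 45.2 and 32.8 CPM in other basal cells, so its lowest value in members, in library 1, lay below the highest in other basal cells. In that library members had 5 Capn6 UMIs. In luminal progenitors and hormone-responsive cells the 6 genes were at 0 to 7.53 CPM in any library.

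**Figure D1:**
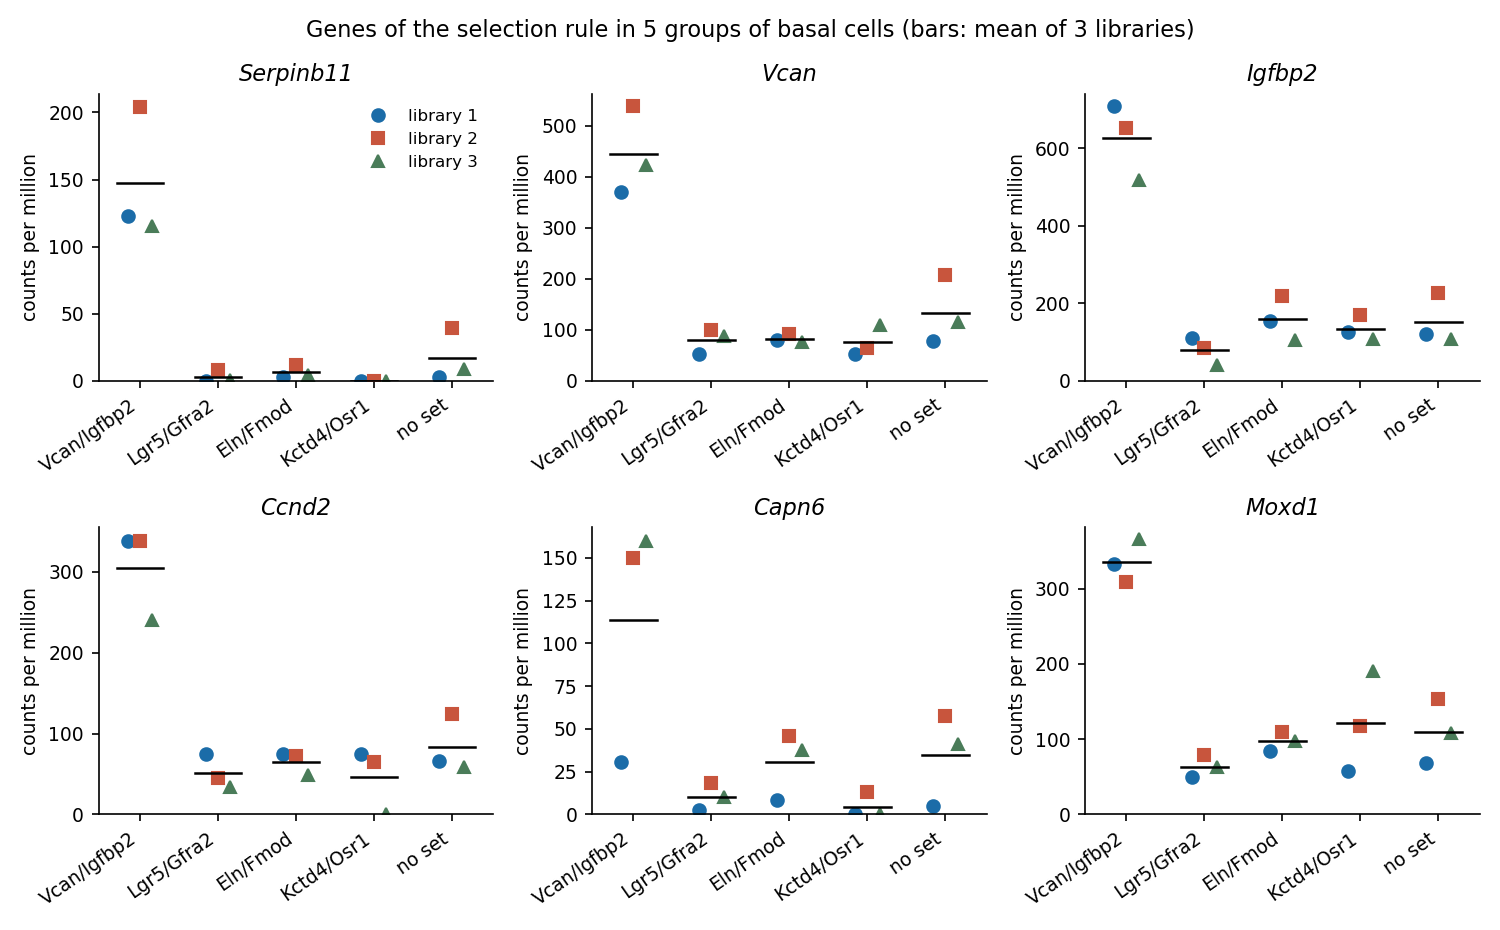
Levels of the 6 genes that chose the members, in CPM of each group's summed UMIs (y axis, linear, from 0), for 5 groups of basal cells (x axis). Points are the 3 libraries and bars their mean. Vcan stands at 369, 539 and 423 in Vcan/Igfbp2 basal cells, and Capn6 in library 1 stands at 30.8.

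Among the members, 202 had exactly 2 of the 6 genes detected, 267 had 3, 247 had 4, 145 had 5 and 25 had all 6. The pair seen together most often was Vcan with Igfbp2, in 465 members (52.5%), followed by Vcan with Moxd1 in 445 and Igfbp2 with Moxd1 in 442. The rarest pair was Serpinb11 with Capn6, in 117 members. Members needed at least 2 of the genes, so pairs are frequent in them by construction. Vcan had a UMI in 62.5%, 77.7% and 62.0% of members of libraries 1, 2 and 3, against 11.1%, 18.5% and 13.4% of other basal cells. Thinning cells to 1500 UMIs, with shallower cells left out, evens the depth at counting, while membership stayed that of the unthinned counts. These shares were then 33.3%, 52.1% and 45.2% of members against 8.22%, 13.7% and 11.9% of other basal cells. Luminal progenitors, which should lack Vcan, had a UMI in 0.486%, 0.668% and 0.428% of cells at the same thinned depth, and in 0.714%, 1.99% and 0.80% before thinning at median depths of 2855, 3738.5 and 3355 UMIs. The share in other basal cells was thus above the luminal background too.

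The rule has a threshold at 2 genes. Members with exactly 2 set genes had Vcan at 299, 342 and 353 CPM and Igfbp2 at 218, 327 and 379 CPM. Basal cells with exactly 1 set gene numbered 463, 1465 and 1309 in libraries 1, 2 and 3. Those that also had none of any other set, a condition not put on members, numbered 3, 9 and 3. These few cells had Vcan at 357, 277 and 241 CPM and Igfbp2 at 0 in each library. Their median UMIs were 1842, 1357 and 1247, against 2175, 2519 and 1890.5 in members with 2 set genes. A further 1595 basal cells had at least 2 of the set genes and were not members because another set had at least as many genes detected, which was the Eln/Fmod set in 1399 of them and the Lgr5/Gfra2 set in 605. Membership in the set is therefore a cut through cells that share genes with the neighbouring sets.

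Whether the set genes go together beyond the rule was looked at by leaving each gene out and choosing members from the other 5. The choice still required more genes of this set than of any other. The gene left out was higher in cells so chosen in all 3 libraries for each of the 6 genes. Vcan was at 308, 481 and 297 CPM in members chosen without it, against 74.5, 165 and 105 CPM in other basal cells, which gives log2 ratios of 2.05, 1.55 and 1.5. The log2 ratios were 2.59, 1.26 and 1.49 for Igfbp2, 2.14, 1.42 and 1.25 for Ccnd2, and 1.80, 0.84 and 1.34 for Moxd1. Serpinb11 gave 5.73, 2.30 and 2.67, the first from 19 UMIs. Capn6 gave 0.19, 0.83 and 0.89, the first from 1 UMI. The set genes were picked in these data, so these ratios describe the set and do not test it.

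Genes outside the rule placed members near each other as well. On 30 principal components computed without the rule genes, 8.96%, 40.7% and 20.5% of the 20 nearest neighbours of a member were themselves members in libraries 1, 2 and 3. Members made up 2.86%, 13.1% and 4.63% of the basal cells of those libraries, so the neighbour shares were 3.14, 3.11 and 4.42 times the share of members. Most neighbours of members were other basal cells in every library. Depth per cell was higher in members, and its part in this result was not tested.

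Members were a minority of basal cells, and their share differed between libraries by more than counting error. Of the basal cells, 2.86% were members in library 1 (exact 95% binomial interval 2.11% to 3.77%), 13.1% in library 2 (12.2% to 14.1%) and 4.63% in library 3 (4.03% to 5.29%), with a mean of 6.87% ± 5.48 (SD, n = 3). Library 2 decided this mean, which was 3.74% without it. Thinning cells to 1500 UMIs and applying the rule again gave 3.21%, 10.7% and 4.50%. Cells below that depth were left out, which were 0, 50 and 28 members and 343, 622 and 1349 other basal cells. At 1000 UMIs per cell, where fewer cells were left out, the shares were 2.05%, 8.07% and 2.84%. The intervals cover counting error alone.

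The share of members depended on depth within each library. With the basal cells of a library split into 4 equal groups by UMIs, 7.58%, 30.4% and 11.2% of the deepest group were members in libraries 1, 2 and 3, against 0.238%, 6.05% and 1.71% of the shallowest. The other sets took different shares of the same libraries. Eln/Fmod basal cells made up 15.1%, 48.9% and 43.9% of basal cells, and Lgr5/Gfra2 basal cells made up 33.1%, 12.7% and 19.9%. Library 2, with the most members, also had the highest share of Eln/Fmod cells and the lowest share of Lgr5/Gfra2 cells.

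**Figure D2:**
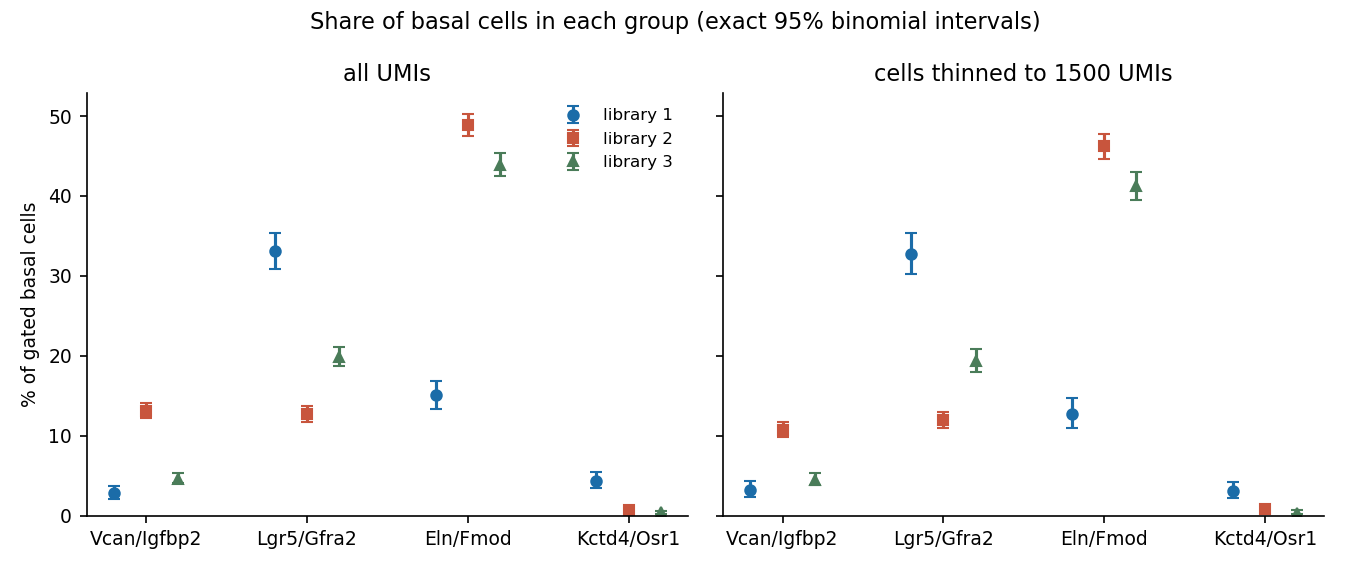
Share of gated basal cells in each of 4 sets (y axis, percent, from 0), with all UMIs on the left. On the right, cells were thinned to 1500 UMIs and cells below that depth were left out. Points are libraries and bars are exact 95% binomial intervals. Vcan/Igfbp2 basal cells were 2.86%, 13.1% and 4.63% with all UMIs and 3.21%, 10.7% and 4.50% after thinning.

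To see which other genes differed, UMIs were summed per library and group and compared with edgeR's quasi-likelihood test, blocked by library. Calls needed a Benjamini-Hochberg adjusted p under 0.05 and a log2 fold change beyond 0.5 in either direction. The test shares the spread between libraries across genes, so a low p can stand beside a wide SD. Tspan8, for example, had a log2 fold change of -2.36 ± 2.46 (SD over 3 libraries, edgeR adjusted p = 6.47e-10). A low p is therefore no measure of how alike the libraries were for that gene. Of 10813 genes tested outside the rule, 398 (3.68%) were higher in members than in other basal cells and 435 (4.02%) were lower, which is 7.7% in all, and 2321 (21.5%) had an unadjusted p below 0.05. The median log2 fold change of all tested genes was -0.01. Of the called genes, 344 of the higher and 389 of the lower had 1 sign in all 3 libraries. Because the set genes were picked from these cells, the called genes describe the chosen cells and do not show that they form a separate type.

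The calls depended on how the cells were compared. DESeq2 called 127 genes higher and 141 lower, and cells thinned to 1500 UMIs gave 152 and 211. Against other basal cells matched on UMIs per cell, 177 genes were higher and 265 lower. Without library 2, which held 633 of the 886 members, 200 were higher and 289 lower, and without library 3, 255 and 287.

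The 15 genes with the largest increases in members included the matrix genes Fbln1 and Fbln2 and the cell-cycle genes Ccnd1, Cenpa, Mcm6 and Hells. Fbln2 (chromosome 6, 91212455 to 91272540) encodes fibulin-2, an elastic fibre and basement membrane protein that binds versican. It was at 376, 433 and 544 CPM in members of libraries 1, 2 and 3, against 106, 191 and 180 CPM in other basal cells. The groups did not overlap, and the log2 fold change was 1.44 ± 0.33 (SD over 3 libraries, edgeR adjusted p = 2.19e-17). Fbln1, encoding fibulin-1, another versican-binding protein, was at 18.5, 50.5 and 90.7 CPM in members and at 10.1, 19.6 and 23.7 CPM in other basal cells. Here the values of members in library 1, from 3 UMIs, fell within the range of other cells, and the log2 fold change was 1.57 ± 0.54 (edgeR adjusted p = 5.87e-10).

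Serpinf1 and Pcsk6 are further genes of secreted proteins. Serpinf1, encoding pigment epithelium-derived factor, a secreted serpin that inhibits blood vessel growth, was at 154, 125 and 187 CPM in members and at 41.6, 53.1 and 51.7 CPM in other basal cells. Its log2 fold change was 1.54 ± 0.36 (edgeR adjusted p = 3.91e-15), and the groups did not overlap. Pcsk6, a proprotein convertase that cleaves precursors of the TGF-beta family, was at 30.8, 73.4 and 46.2 CPM in members and at 7.60, 23.9 and 14.1 CPM in other basal cells, with a log2 fold change of 1.68 ± 0.18 (edgeR adjusted p = 7.9e-11).

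Cyclin D1 was higher in the members beside cyclin D2, which the rule used. Ccnd1 (chromosome 7, 144929931 to 144939925) was at 123, 151 and 88.9 CPM in members and at 50.7, 53.8 and 29.6 CPM in other basal cells, with a log2 fold change of 1.48 ± 0.15 (edgeR adjusted p = 1.59e-13). Every library of the members lay above every library of the other cells. Against other basal cells matched on UMIs per cell the log2 fold change was 0.86 (edgeR adjusted p = 0.000147). Among luminal progenitors Ccnd1 was at 416, 366 and 243 CPM, above the level in either basal group. Ccnd3 was at 49.3, 50.03 and 35.5 CPM in members and at 47.6, 43.7 and 47.3 CPM in other basal cells, with overlapping ranges.

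The rest of the 15 genes with the largest increases had mixed roles. Psat1, an enzyme of serine synthesis, was at 36.9, 86.7 and 69.3 CPM in members and at 8.44, 32.2 and 20.6 CPM in other basal cells (log2 fold change 1.57). St8sia6, a sialyltransferase, was at 49.3, 63.8 and 88.9 CPM in members and at 22.2, 18.8 and 18.2 CPM in other basal cells (1.87). A230065H16Rik, a gene without a known role here, had the largest increase of these 15 genes, at 24.6, 62.4 and 64.0 CPM in members and at 1.69, 9.87 and 4.35 CPM in other basal cells. Its log2 fold change was 3.09 ± 0.60 and was 3.81 without library 2, and the value of members in library 1 came from 4 UMIs.

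The others were Csrp2, encoding an actin-associated LIM protein (1.53), Trpm3, a cation channel (1.52), Opcml, a cell adhesion molecule (1.51), Adgrg2, an adhesion G protein-coupled receptor (1.34), and the cell-cycle genes Cenpa (2.1), Mcm6 (1.54) and Hells (1.36). In library 1 Csrp2 had 6 UMIs in members, 5 of them in 1 cell, and Cenpa and Opcml had 1 UMI each. Cenpa was at 6.16, 27.2 and 92.4 CPM in members and at 2.81, 9.06 and 14.5 CPM in other basal cells. Opcml was at 6.16, 57.2 and 40.9 CPM in members and at 3.38, 21.7 and 11.6 CPM in other basal cells. Both genes overlapped between the groups. Hells lost its call without library 2 (log2 fold change 1.34, edgeR adjusted p = 0.110) and against depth-matched cells (0.73, edgeR adjusted p = 0.0946). Of these 15 genes, 10 did not overlap between members and other basal cells. This was the case for 253 of the 398 genes called higher and for 17.7% of all tested genes. The 15 were picked among called genes with 1 sign in all libraries, so their excess over all tested genes follows from the choice. All 15 were also called against the basal cells of the other sets.

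The 15 genes with the largest decreases in members included the protease inhibitor gene Slpi and the complement genes C4b and Serping1. Slpi (chromosome 2, 164354070 to 164389095), a secreted inhibitor of leukocyte proteases, was at 1490.3, 309 and 350.2 CPM in members, against 5339, 1365 and 1908 CPM in other basal cells. Within each library the members were below the other cells, while the ranges overlap because library 1 stood high in both. The log2 fold change was -2.18 ± 0.30 (edgeR adjusted p = 4.37e-34). C4b, complement component 4, was at 12.3, 20.5 and 7.11 CPM in members and at 100.2, 98.9 and 98.5 CPM in other basal cells, with a log2 fold change of -2.56 ± 0.73 (edgeR adjusted p = 2.19e-17) and of -3.63 without library 2. Serping1, the C1 inhibitor, was at 0, 9.53 and 10.7 CPM in members and at 23.6, 38.5 and 50.7 CPM in other basal cells (-2.12 ± 2.05, edgeR adjusted p = 2.03e-09).

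Further secreted and surface proteins were lower too. Chil1, a chitinase-like secreted protein, was at 413, 165 and 176 CPM in members and at 640, 637 and 782 CPM in other basal cells, with a log2 fold change of -1.72 ± 0.82 (edgeR adjusted p = 6.86e-19). Ptx3, a pentraxin of innate immunity, was at 55.4, 18.1 and 35.5 CPM in members and at 218, 55.4 and 78.4 CPM in other basal cells (-1.56 ± 0.42, edgeR adjusted p = 3.27e-10). Scn7a, a sodium channel family member, was at 185, 53.4 and 69.3 CPM in members and at 369, 209 and 261 CPM in other basal cells (-1.76 ± 0.54, edgeR adjusted p = 3.77e-17). Chil1 and Scn7a did not overlap between the groups, and Ptx3 did.

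The remaining 9 of the 15 genes with the largest decreases were Fabp4 (-3.69), the tetraspanin gene Tspan8 (-2.36), Thsd7a (-2.35), Fxyd6, a regulator of the sodium pump (-1.90), Fam180a (-1.74), the natriuretic peptide receptor gene Npr1 (-1.72), the imprinted non-coding RNA Meg3 (-1.66), the NADPH oxidase gene Nox4 (-1.60) and Adamts2, a procollagen protease (-1.51). Fabp4, a fatty-acid binding protein of adipocytes and endothelial cells, was not an even difference, since 1 cell held 39.6%, 23.9% and 47.7% of the Fabp4 UMIs of other basal cells in libraries 1, 2 and 3. Fam180a lost its call without library 2 (-1.11, edgeR adjusted p = 0.125). Without library 2 Tspan8 was at -3.27, and Thsd7a was at -3.22 without library 1 and at -1.73 without library 2. Of the 15 genes, 11 did not overlap between the groups, beside 245 of the 435 genes called lower and 17.7% of all tested genes. These 15 were also picked among called genes with 1 sign in all libraries. All 15 were called against the pooled basal cells of the other sets, which does not mean a difference from each set. Fabp4 was at 69.4, 17.7 and 82.3 CPM in Eln/Fmod cells. It was at 3.29, 4.20 and 5.35 CPM in Lgr5/Gfra2 cells and at 0 in Kctd4/Osr1 cells of each library, against 0, 1.91 and 3.55 CPM in members.

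**Figure D3:**
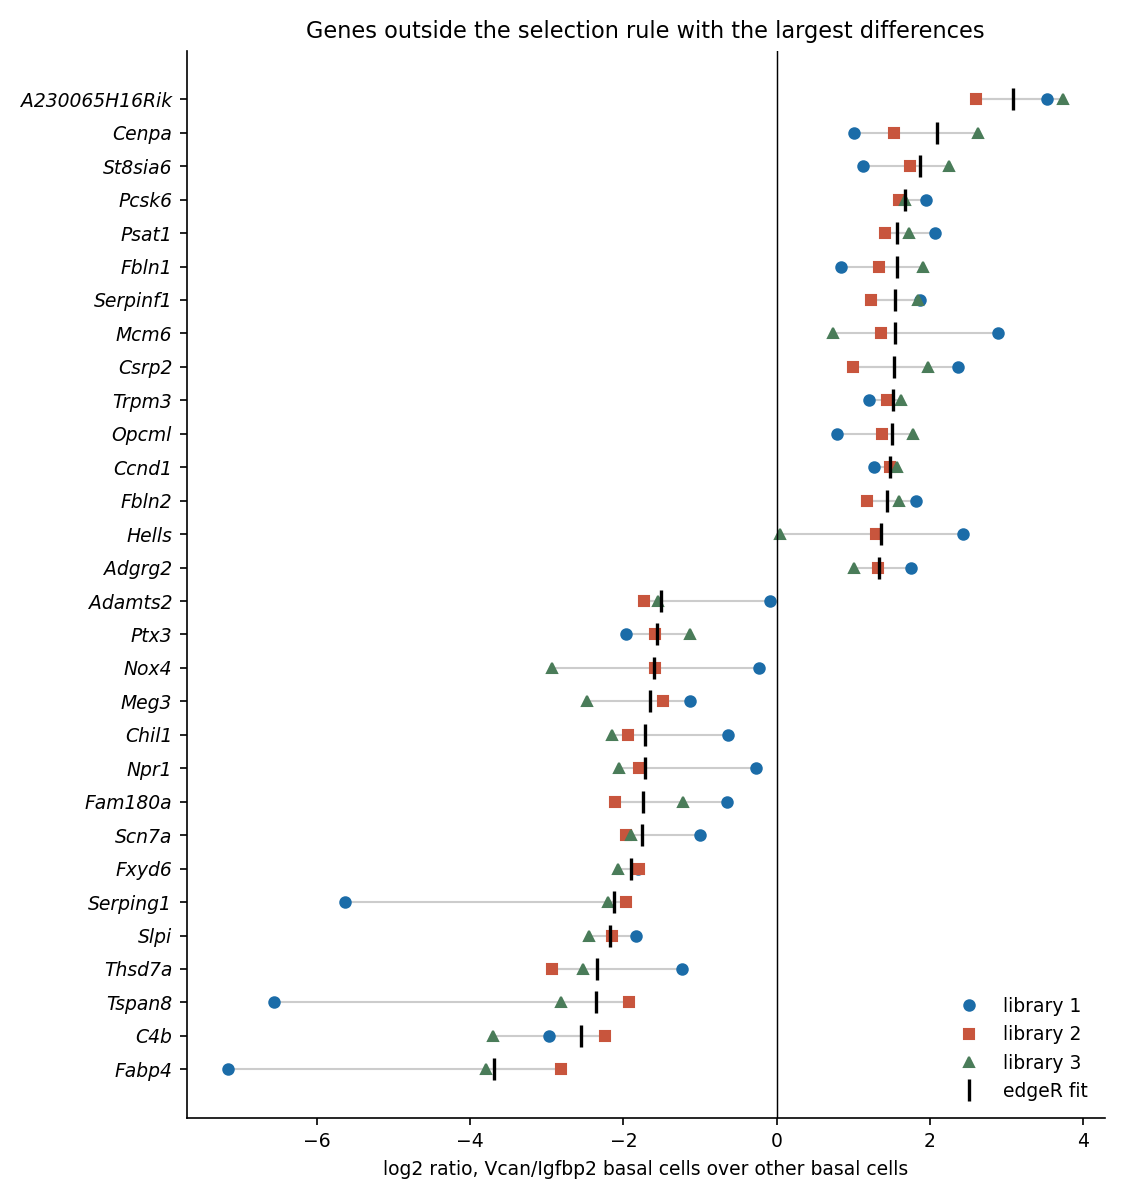
Log2 ratio of Vcan/Igfbp2 basal cells over other basal cells (x axis) for the 15 called genes with the largest increases and the 15 with the largest decreases (rows). Points are libraries, with a prior count of 2, and the black bar is the edgeR estimate. Ccnd1 lies close to 1.48 in every library, while Serping1, Tspan8 and Fabp4 reach their lowest value in library 1, where members had 0 UMIs.

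The difference also followed the number of set genes in a cell. Over all basal cells, Slpi was lower with each further set gene detected. It stood at 462, 227 and 222 CPM in cells with 4 or more in libraries 1, 2 and 3, against 6685, 2088 and 2460.4 CPM in cells with 0. Fbln2 stood at 475, 477 and 633 CPM in cells with 4 or more and at 81.7, 119 and 130.3 CPM in cells with 0. Cells with 4 or more set genes lay beyond cells with 0 for 14, 15 and 15 of the 15 higher genes and for all 15 lower genes in each library. The change ran in 1 direction over all 5 steps for 7, 10 and 11 of the higher genes and for 4, 12 and 11 of the lower genes. Median UMIs per cell moved with it, at 4350.0, 3616 and 3303 with 4 or more set genes and at 1870.0, 1875 and 1611 with 0, and their part in the result was not tested. The genes plotted were chosen by the difference between members and other cells, so their direction here is not independent of it.

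**Figure D4:**
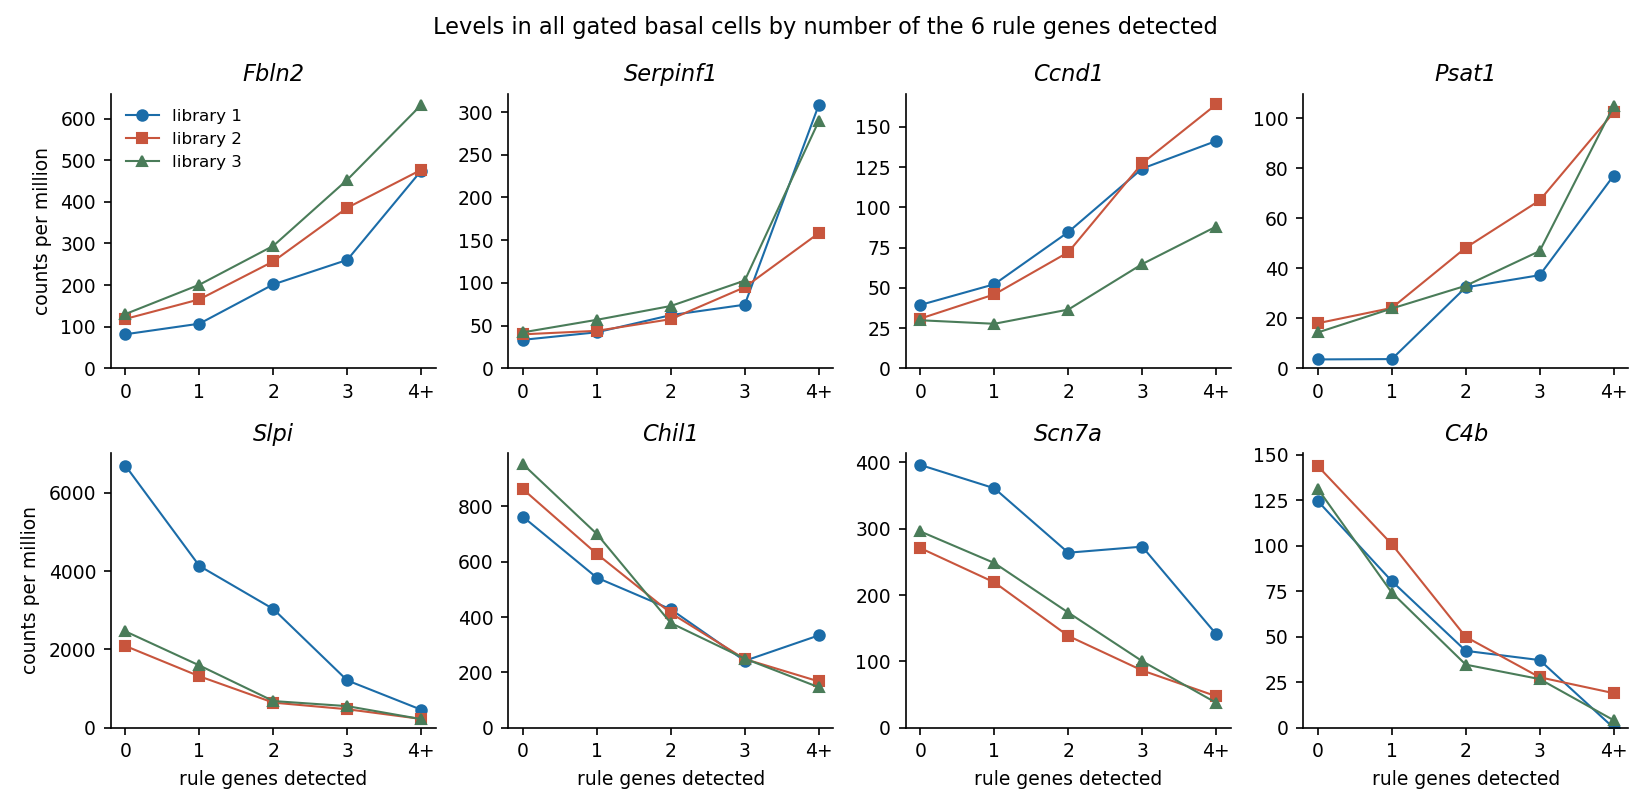
Levels of 4 higher and 4 lower genes in CPM (y axes, linear, from 0) in all gated basal cells, by the number of the 6 set genes detected per cell (x axis, 0 to 4 or more). Lines are the 3 libraries. Slpi reaches 462, 227 and 222 in cells with 4 or more set genes, against 6685, 2088 and 2460.4 with 0.

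Many genes of mitosis, and fewer of DNA replication, were called higher in members. The lists named here were drawn up with earlier results of these data known. Of 22 tested genes of G2 and M phase, 18 were higher and 0 lower, with a median log2 fold change of 2.03 beside -0.01 over all tested genes, of which 3.68% were called higher. Top2a, the DNA topoisomerase of dividing cells, was at 24.6, 32.9 and 26.7 CPM in members and at 6.75, 10.7 and 7.24 CPM in other basal cells, and Mki67, the proliferation antigen Ki-67, was at 12.3, 27.6 and 55.1 CPM in members and at 1.41, 6.24 and 10.3 CPM in other basal cells. The largest change was that of Tpx2, a spindle assembly factor (2.95), which had 0 UMIs in members of library 1, followed by Nusap1 (2.75), a spindle-associated protein that had 1 UMI there and lost its call without library 2 (2.31, edgeR adjusted p = 0.0765). Without library 3 the count was 13 of 21 and without library 2 it was 16 of 21.

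Of 24 tested S phase genes, 13 were higher and 0 lower, with a median log2 fold change of 0.98, and 11 did not pass the test. Among all tested genes 3.68% were called higher. Mcm6, a subunit of the replicative helicase, was at 80.1, 37.6 and 12.4 CPM in members and at 10.4, 14.4 and 7.24 CPM in other basal cells. Rrm2, the small subunit of ribonucleotide reductase, was at 6.16, 20.5 and 21.3 CPM in members and at 2.53, 6.44 and 2.90 CPM in other basal cells (log2 fold change 1.99). The count of higher S phase genes was 4 of 21 without library 2, 8 of 24 without library 1 and 4 of 21 against depth-matched cells.

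The observed share of members with a Top2a or Mki67 UMI lay above that of other basal cells in each library. With cells thinned to 1500 UMIs, 2.08% (1 of 48 cells), 4.97% (29 of 583) and 8.47% (15 of 177) of members had such a UMI in libraries 1, 2 and 3, against 0.853%, 1.79% and 1.95% of other basal cells. Membership here was that of the unthinned counts, by which deeper cells were chosen more often. The part of that choice in these shares was not tested. The means were 5.18% ± 3.20 in members and 1.53% ± 0.592 in other basal cells (SD, n = 3 each). In library 1 the exact 95% interval of the members, 0.0527% to 11.1%, held the value of the other cells, so a difference was not detectable there at this number of cells. In libraries 2 and 3 the exact 95% intervals of the members, from 3.36% and 4.82% upward, lay above those of the other basal cells, which ended at 2.28% and 2.52%. These intervals cover counting error within a library and not the spread between libraries, and no test over the 3 libraries was made. Before thinning the shares were 2.08%, 9.48% and 10.7% in members against 1.29%, 2.55% and 2.20% in other basal cells.

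Most members had neither gene detected. A cell without such a UMI can still be dividing, so leaving out the cells with 1 does not leave out all dividing cells. Leaving out all cells with a Top2a or Mki67 UMI, an alternative added after the data were seen, gave 279 genes higher and 351 lower of 10665 tested. Under it 2 of 10 tested G2 and M phase genes and 6 of 23 S phase genes were higher. With all cells 22 G2 and M phase genes were tested. Top2a and Mki67 belong to that list, so fewer calls in it follow in part from the choice of cells. The part of division in the remaining calls was not tested. Cenpa, the centromeric histone variant, was then at a log2 fold change of 1.05 (edgeR adjusted p = 0.0527), against 2.1 with all cells. Ccnd1, Fbln2, Slpi and C4b kept their calls in that comparison.

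**Figure D5:**
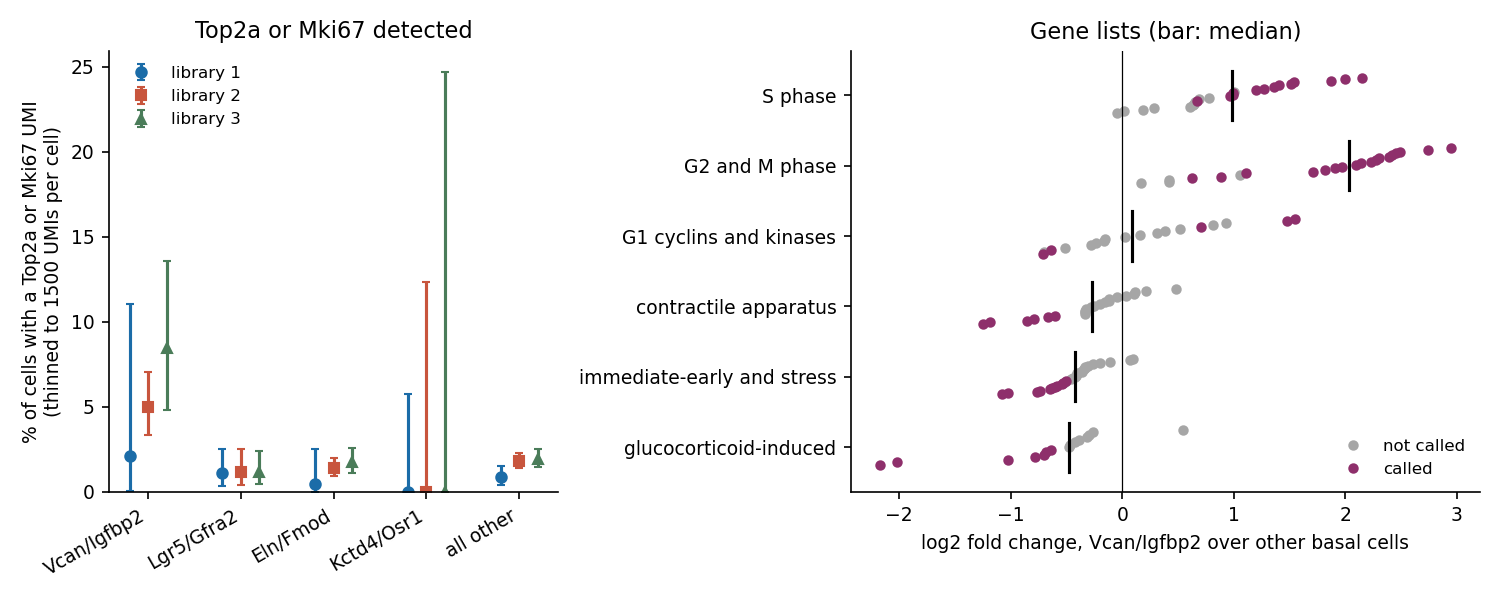
Left: share of cells with a Top2a or Mki67 UMI at 1500 UMIs per cell (y axis, percent, from 0) by group and library, with exact 95% binomial intervals. Right: log2 fold change of each tested gene of 6 lists (x axis), with called genes coloured and the median as a bar. The share was 2.08%, 4.97% and 8.47% in Vcan/Igfbp2 basal cells and 0.853%, 1.79% and 1.95% in all other basal cells, and 18 of 22 G2 and M phase genes were called higher.

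Of 18 tested G1 regulators, 3 were higher and 2 lower, with a median of 0.09, beside 3.68% higher and 4.02% lower of all tested genes. E2f1, a transcription factor of S phase entry (1.55), was higher beside Ccnd1 and Cdk4, the kinase partner of D cyclins (0.71). E2f1 was at 24.6, 10.96 and 0 CPM in members and at 4.50, 4.03 and 0.604 CPM in other basal cells, and its call was lost without library 1 (1.36, edgeR adjusted p = 0.135). Cdkn1a, the p21 inhibitor of cyclin-dependent kinases (-0.71), and Myc (-0.64) were lower.

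The list of the IGF system was looked at because Igfbp2 belongs to it. Of 13 tested genes, 3 were higher and 0 lower, with a median of -0.25, and 10 did not pass the test. Among all tested genes 3.68% were called higher and 4.02% lower. Igfbp4, another IGF-binding protein, was at 154, 232 and 329 CPM in members and at 36.3, 144 and 95.9 CPM in other basal cells, without overlap (log2 fold change 1.27 ± 0.73, edgeR adjusted p = 2.69e-11). Pappa, the protease known to cleave IGFBP-4, was at 185, 157 and 130 CPM in members and at 107, 86.8 and 76.3 CPM in other basal cells (0.80 ± 0.05, edgeR adjusted p = 4.18e-06). Htra1, a secreted serine protease, had a log2 fold change of 0.73.

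Genes of the versican and hyaluronan matrix gave a similar count. Of 16 tested genes, 3 were higher, namely Fbln1, Fbln2 and Adamts9 (0.60), and 1 was lower, Adamts1 (-0.70), with a median of 0.14. The shares over all tested genes were 3.68% higher and 4.02% lower. Adamts1 and Adamts9 encode metalloproteases that cleave versican, and they differed in opposite directions. Among 15 other proteoglycan genes, Gpc1 was higher (0.59), and Prelp, Spock2 and Sdc4 were lower. With DESeq2, without library 1 and without library 2, 0 genes of this list were higher, so the Gpc1 call was lost. Prelp, a small leucine-rich proteoglycan, was at 117, 137 and 242 CPM in members and at 244, 367 and 436 CPM in other basal cells (-1.16 ± 0.29, edgeR adjusted p = 2.45e-11).

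The families of Capn6 and Serpinb11 were looked at in the same way. By edgeR 0 of 8 tested genes of calpains and calpastatin were called, beside 7.7% of all genes, and DESeq2 also called 0. Their median was -0.23, and by edgeR Capns1 alone had an unadjusted p below 0.05, with a log2 fold change under 0.5 in size. Of 11 tested genes of clade B serpins and basal proteases, 1 was higher, Serpinf1, and 3 were lower, among them Serping1 and Plat (-0.65). Of those named, none is a clade B serpin.

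Of 29 tested basement membrane and matrix genes, 5 were higher and 5 lower, with a median of -0.08, and 19 did not pass the test. Over all tested genes 3.68% were called higher and 4.02% lower. The higher genes were Col4a1 (0.83) and Col4a2 (0.58), the type IV collagen chains of basement membranes, Lama1 (0.69), a laminin chain, and Col11a1 (1.27) and Col9a1 (0.93), chains of collagens known from cartilage fibrils. Col4a1 was at 1041, 1229 and 1274 CPM in members and at 484, 861 and 622 CPM in other basal cells, without overlap. The lower genes were Col3a1, Col1a2, Col1a1, Col6a1 and Postn, of which the first 3 are also fibroblast markers. Col3a1 was at 0, 9.53 and 7.11 CPM in members and at 4.50, 36.7 and 23.9 CPM in other basal cells, and was not called without library 2 (-1.88, edgeR adjusted p = 0.0652). The fibroblast marker sums given above overlapped between the groups, and their part in the collagen result was not tested.

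Of 22 tested contractile genes, 6 were lower and 0 higher, with a median of -0.27, beside 4.02% of all tested genes called lower. With cells thinned to 1500 UMIs 3 of 22 were lower. Synm, an intermediate filament protein, was at 86.2, 58.6 and 62.2 CPM in members and at 134, 162 and 132 CPM in other basal cells (-1.25 ± 0.41, edgeR adjusted p = 1.05e-09). Mcam, an adhesion molecule of smooth muscle, was at 6.16, 10.5 and 17.8 CPM in members and at 38.3, 22.7 and 36.7 CPM in other basal cells (-1.19). Oxtr, the oxytocin receptor, was at 283, 298 and 238 CPM in members and at 338, 451 and 406 CPM in other basal cells (-0.61), again without overlap. Lmod1, Smtn and Synpo2 were the other lower genes. The remaining 16, among them Myh11, did not pass the test.

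Of 24 tested transcription factors of the basal layer, 3 were higher, Sox11 (2.07), Tbx2 (0.78) and Id4 (0.54), and 1 was lower, Runx1 (-0.73), with a median of -0.16. Over all tested genes 7.7% were called. Without library 1 the list had 1 higher and 1 lower gene, and with DESeq2 the same numbers. Sox11, a factor of embryonic mammary epithelium, was at 6.16, 7.15 and 8.89 CPM in members and at 1.41, 1.81 and 1.81 CPM in other basal cells, but this rested on 1, 15 and 5 UMIs, and the call was lost without library 2 (2.18, edgeR adjusted p = 0.148) and without library 3 (1.99, edgeR adjusted p = 0.0756). Tbx2 lost its call without library 1 (0.67, edgeR adjusted p = 0.0613) and without library 2 (1.10, edgeR adjusted p = 0.0640).

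In the Wnt pathway, 2 of 28 tested genes were higher and 1 lower, with a median of 0.18, which is near the 3.68% higher and 4.02% lower of all tested genes. Without library 2 the list had 1 higher and 0 lower genes. Tcf7, a transcription factor that acts with beta-catenin, was at 36.9, 58.6 and 40.9 CPM in members and at 17.4, 27.2 and 20.5 CPM in other basal cells (1.08 ± 0.06, edgeR adjusted p = 1.35e-05), with no call without library 2 (0.95, edgeR adjusted p = 0.101). Wnt6, a secreted ligand, was at 61.6, 71.0 and 71.1 CPM in members and at 15.8, 45.3 and 31.4 CPM in other basal cells (0.92 ± 0.65, edgeR adjusted p = 4.31e-05). Fzd7, a Wnt receptor, was lower (-0.57), but not without library 2.

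In the TGF-beta and BMP list 6 of 23 tested genes were lower and 1 higher, with a median of -0.31, beside 4.02% of all tested genes called lower. With DESeq2, and with thinned cells, 3 were lower. Tgfb1, the ligand, was at 18.5, 21.9 and 12.4 CPM in members and at 46.7, 41.9 and 19.8 CPM in other basal cells (-0.92), and lost its call without library 2 (-0.97, edgeR adjusted p = 0.261). Id3, a target of BMP signals, was lower in each library, at 43.1, 59.1 and 99.5 CPM in members and at 78.5, 106 and 171 CPM in other basal cells (-0.82 ± 0.04, edgeR adjusted p = 2.65e-05). The latent TGF-beta binding proteins Ltbp2 (-0.76) and Ltbp3 (-0.61), Fstl3 (-0.78) and Smad7 (-0.53) were lower, and Bmp7 (0.55) was higher, but not without library 2, where 0 genes of the list were higher.

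Of 19 tested FGF, EGF and hedgehog genes, 2 were higher and 4 lower, beside 3.68% higher and 4.02% lower of all tested genes. Nrg1, the ErbB ligand neuregulin, was at 246, 65.8 and 83.5 CPM in members and at 125, 38.7 and 46.6 CPM in other basal cells (0.82 ± 0.11), and Pdgfa, a platelet-derived growth factor chain, at 228, 245 and 222 CPM in members and at 133, 160 and 127 CPM in other basal cells (0.69 ± 0.10). Fgfr3 (-1.23), Fgf1 (-0.93), Hbegf (-0.68) and Egfr (-0.52) were lower, and members had 2, 14 and 3 UMIs of Fgfr3 and 1, 35 and 5 UMIs of Fgf1 in libraries 1, 2 and 3. Without library 3, and with DESeq2, 0 genes of the list were lower. The edgeR adjusted p-values of Fgfr3 and Fgf1 without library 3 were 0.0849 and 0.184. Fgfr3 was also not called without library 2 (-1.65, edgeR adjusted p = 0.0773), and Fgf1 not without library 1 (-0.88, edgeR adjusted p = 0.0674), while it was at -1.89 without library 2.

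Of 12 tested proposed stem cell markers, Pdpn (0.54) was higher, and Ly6a (Sca-1, -3.22) and Tspan8 (-2.36) were lower. Among all tested genes 3.68% were called higher and 4.02% lower. Pdpn was not called without library 2 or with DESeq2, where 0 genes of the list were higher. Ly6a had 2 UMIs in all members and was at 0, 0.953 and 0 CPM in them and at 10.1, 4.83 and 13.0 CPM in other basal cells, and it was not called without library 3 (-2.52, edgeR adjusted p = 0.0939). Without library 2 members had no Ly6a UMI left, so no fold change is given for that setting. Procr, a marker proposed for multipotent basal cells, was at 6.16, 2.86 and 7.11 CPM in members and at 12.1, 5.64 and 5.67 CPM in other basal cells, and was not called.

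Lists of stress and of glucocorticoid-induced genes held lower and no higher calls. Of 29 tested immediate-early and dissociation-stress genes, 11 were lower and 0 higher, with a median of -0.42, and 18 did not pass the test. Among all tested genes 4.02% were called lower. Fos was at 2260.0, 2399 and 3157 CPM in members and at 2621, 4190.2 and 4884 CPM in other basal cells (-0.60). Dusp1, a phosphatase, was at 437, 196 and 158 CPM in members and at 485, 406 and 491 CPM in other basal cells (-1.03 ± 0.75, edgeR adjusted p = 1.77e-09). Klf2 (-1.08) was not called without library 2 (-0.72, edgeR adjusted p = 0.128). Against depth-matched cells, 5 of 28 genes of this list were lower.

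Of 15 tested glucocorticoid-induced genes, 7 were lower and 0 higher, with a median of -0.48, and 8 did not pass the test. The share called lower over all tested genes was 4.02%. Against depth-matched cells 4 of 14 were lower. The 7 were Slpi, Zbtb16, Dusp1, Mt2, Errfi1, Klf9 and Mt1. Klf9, a direct target of the glucocorticoid receptor, was at 61.6, 61.5 and 83.5 CPM in members and at 95.1, 103 and 127 CPM in other basal cells (-0.68), with no overlap. Zbtb16 (-2.02) had 2, 3 and 0 UMIs in members of the 3 libraries and lost its call without library 1 (-1.93, edgeR adjusted p = 0.182) and without library 3 (-1.50, edgeR adjusted p = 0.132), and was at -2.89 without library 2.

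Of 13 tested chemokines and cytokines, 3 were lower, namely Cxcl12, Cxcl2 and Cxcl1, with a median of -0.36, and 4.02% of all tested genes were called lower. Cxcl12 was at 92.4, 55.7 and 94.2 CPM in members and at 141, 137 and 132 CPM in other basal cells (-0.93), without a call when library 2 was left out (-0.58, edgeR adjusted p = 0.0629). Cxcl2 (-0.78, edgeR adjusted p = 0.0255) lost its call without any 1 of the libraries, with edgeR adjusted p-values of 0.0670, 0.330 and 0.0946. Of 18 MHC and interferon genes, Cd74, the invariant chain of MHC class II, was higher, at 49.3, 72.9 and 33.8 CPM in members and at 20.3, 34.3 and 19.7 CPM in other basal cells (1.04 ± 0.25), and was not called without library 2 (0.87, edgeR adjusted p = 0.176). The share called higher over all tested genes was 3.68%.

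Of 26 tested neural guidance and adhesion genes, Sema3b (1.77) and Ncam1 (0.68) were higher, and Plxna4 (-2.65), Pcdh7 (-0.96) and Ephb1 (-0.83) were lower. Among all tested genes 7.7% were called, and the Notch and integrin counts given below are near that share. Without library 2 the list had 0 higher and 1 lower gene. Plxna4, a plexin receptor for semaphorins, was at 6.16, 3.81 and 1.78 CPM in members and at 28.4, 19.8 and 29.7 CPM in other basal cells. Sema3b, a secreted semaphorin, was at 12.3, 40.5 and 14.2 CPM in members and at 3.10, 11.7 and 4.83 CPM in other basal cells, and was not called without library 2 (1.57, edgeR adjusted p = 0.153). Of 9 imprinted genes, Mest was higher, at 18.5, 15.2 and 14.2 CPM in members and at 3.10, 1.91 and 3.02 CPM in other basal cells (2.66 ± 0.32), and Meg3 (-1.66) and Peg3 (-1.21) were lower. Of 12 Notch genes, the ligand Jag1 was lower (-0.63), a call lost without library 2 (-0.65, edgeR adjusted p = 0.0888). Of 21 integrin and focal adhesion genes, Dst (-0.75) and Itga9 (-0.63) were lower, the second not without library 2 (edgeR adjusted p = 0.0584) or library 3 (edgeR adjusted p = 0.0997). Of 4 tested keratins of basal and stratified layers, Krt23 (0.51) was higher and was not called without library 1 (0.49, edgeR adjusted p = 0.0549) or library 3 (0.42, edgeR adjusted p = 0.260).

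Comparing members with the 6735 basal cells chosen by the other 3 sets puts a rule on detected genes on both sides. It does not even out depth. Cells of the other sets had median UMIs of 2116.5, 2086 and 1779.5 in libraries 1, 2 and 3, against 3074, 3115 and 2663 in members. Of 10289 genes tested, 442 (4.3%) were higher in members and 447 (4.34%) lower, 8.64% in all. The comparison shares its members, and part of its other cells, with the one above, so the overlap is not independent support. Of the genes called, 368 of the higher ones were in both comparisons, which is 92.5% of the higher genes against other basal cells and 83.3% of those against the other sets. Fbln2 had a log2 fold change of 1.51, Ccnd1 of 1.63, Slpi of -2.15 and C4b of -2.65 in this comparison (edgeR adjusted p = 1.09e-13, 1.12e-11, 8.04e-23 and 1.38e-13).

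Set by set, the genes of the other sets were mostly lower in members, as the rule requires. Grik3, a kainate receptor subunit of the Lgr5/Gfra2 set, was at 6.16, 10.5 and 8.89 CPM in members and at 136, 231 and 219 CPM in Lgr5/Gfra2 basal cells. Eln, encoding elastin, was at 123, 110 and 85.3 CPM in members and at 476, 683 and 486 CPM in Eln/Fmod basal cells. Il17b of the same set was also frequent in members, at 425, 705 and 1278 CPM, against 829, 1615 and 1376 CPM in Eln/Fmod basal cells. Fmod, encoding the collagen-binding proteoglycan fibromodulin, was at 86.2, 247 and 135 CPM in members and at 52.7, 56.0 and 78.5 CPM in Lgr5/Gfra2 basal cells. Members had more Fmod than Lgr5/Gfra2 cells in every library and less than Eln/Fmod cells, where it was at 272, 452 and 454 CPM. The rule used these genes to choose the groups, so their levels are no measure of how alike the groups are.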

How the data were processed

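The authors deposited 1 table of raw UMI counts per library, with gene symbols in rows and cell barcodes in columns. Per the submitters' processing notes, Cell Ranger 2.1.0 was used with mm10. How cell-containing droplets were told from empty ones was not stated. The tables held 26845 barcodes with 18584156, 27220670 and 30984706 total UMIs, and 0 columns were left unused. Barcodes with at least 500 genes and under 10% mitochondrial UMIs were kept. Doublets were scored with Scrublet (scanpy 1.11.5, removing 0.8% per 1000 barcodes) and removed in an alternative alone.

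Counts were summed per library and group and tested with edgeR 4.0.16 (R 4.3.3; quasi-likelihood, two-sided, TMM, filterByExpr) with the library as a block, since both sums of a library come from the same suspension. Deviations from the group means correlated at 0.288 to 0.393 between the members and other basal cells of the same library and at -0.346 to 0.153 between libraries. The 37 genes of the rule were not tested. Levels are CPM of a group's summed counts, and the SD of a log2 fold change is that of the 3 within-library ratios with a prior count of 2. The scripts were tested on simulated data. Named genes are the 15 largest called changes in each direction with the same sign in all libraries and at least 20 CPM on average, and the 2 largest called genes of each list; genes beyond these were named after their values were seen. The members and gene lists were chosen with earlier results of these data known. Alternatives covered DESeq2 1.42.0 and its size factors, no filter, no block, leaving out each library, doublets, a mitochondrial limit of 5%, at least 3 set genes, thinned cells and depth-matched cells. Values of some genes that the rule would name are not reported here.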

Additional observations from a re-analysis of the deposited data

How the results depend on the processing

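Numbers of genes called against other basal cells, 398 higher and 435 lower, were within 1.5 times of these with DESeq2 size factors, without a filter on low counts, with doublets removed, with a mitochondrial limit of 5% and with at least 3 set genes. They were 127 and 141 with DESeq2, 152 and 211 with cells thinned to 1500 UMIs, and 177 and 265 with depth-matched cells. Leaving out 1 library gave 200 to 336 higher and 287 to 296 lower. Against the other 3 sets, 442 were higher and 447 lower. The counts there were 151 and 142 with DESeq2, 181 and 210 with thinned cells, 206 and 285 with depth-matched cells, and 178 to 490 higher and 241 to 406 lower when leaving out 1 library. Without the library as a block, the pairing of sums was ignored, and 0 genes were higher and 1 lower against other basal cells (1158 at an unadjusted p below 0.05), and 17 and 9 against the other sets. Without cells with a Top2a or Mki67 UMI, an alternative added after seeing the data, the counts were 279 and 351, and 302 and 340. Of all called genes, 5 changed sign with thinned cells and 4 without library 2, and none of the named genes did so under any alternative run. The share of members among basal cells was 4.32% to 7.01% on average under the other cell filters and depths, and 3.74% to 8.87% when leaving out 1 library. The causes of these differences were not tested. Library 1 held 48 members, and a gene needed 1 UMI there to reach 6.16 CPM, so low genes were not resolved in it.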
